A study of Sus scrofa with 12 samples.

Results

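TXNIP and its relatives are the alpha-arrestins, a family of cytoplasmic adaptor proteins, and 8 genes were followed here. They were TXNIP, ARRDC1, ARRDC2, ARRDC3 and ARRDC4, together with the Mondo family regulators MLXIP (MondoA) and MLXIPL (ChREBP) and their shared partner MLX. The set was chosen because the counts of TXNIP fell with dantrolene. The comparison of dantrolene with vehicle is therefore given below as a description without a test for these genes. Other comparisons of a group with dantrolene to one without are tested, but for TXNIP these tests are not independent of the choice. All 8 had a row among the 31908 genes of the count table, and 7 were among the 13216 genes that passed the filter on low counts.

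The libraries were made from mRNA of primary porcine aortic valve interstitial cells (paVICs), wild type, thawed and passaged once before treatment for 24 h. There were 4 groups of 3 libraries: vehicle, 10 μM lysophosphatidylcholine (LPC), 60 μM dantrolene, and LPC + dantrolene. LPC is a phospholipid of oxidized low-density lipoprotein, and dantrolene is a blocker of ryanodine receptors, the calcium release channels of the endoplasmic reticulum. Every group, vehicle included, received DMSO at 0.6% and ethanol at 0.1%. Each isolation pooled the valves of several hearts, so a replicate is a pool of animals and not a single pig. The sample titles give replicate numbers only, and each number is taken here to mark the same isolation in every group.

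TXNIP protein binds reduced thioredoxin, and it promotes removal of glucose transporters from the cell surface. Its gene, and that of ARRDC4, is a classical target of MondoA and ChREBP, which pair with MLX on carbohydrate response elements when hexose phosphates accumulate in the cell. The alpha-arrestins followed here carry motifs that recruit ubiquitin ligases of the NEDD4 family to membrane proteins, and ARRDC3 is best known for the traffic of adrenergic receptors and integrins.

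Totals lay between 16489684 and 24105935 counts per library, and levels are given as CPM, which sets the counts of a gene against library size, here scaled with TMM factors of 0.863 to 1.15. The floor of 3 counts lay at 0.114 to 0.186 CPM by library and covers counting error only. Replicate 2 of LPC + dantrolene stood apart, with a mean correlation of 0.909 with its own group, and results that rest on it are given with and without it. All 11 markers of interstitial cells and fibroblasts were tested, and their summed level was 58773 to 111345 CPM over the 12 libraries. Of these, POSTN and LUM were higher than vehicle with LPC, and LUM also in both groups with dantrolene. Of all genes, 8.54% were higher with LPC, 7.54% with dantrolene and 6.23% with LPC + dantrolene, and nothing is read from these few calls. The 8 endothelial markers summed to 139 to 173 CPM in vehicle, 105 to 141 with LPC, 120 to 125 with dantrolene and 108 to 112 with LPC + dantrolene, and 1 of the 7 tested, CDH5, was lower with dantrolene (log2 fold change −1.20, adjusted p = 0.0111 in edgeR). Of all genes, 1.26% were lower with dantrolene compared to vehicle. The leukocyte markers PTPRC and LYZ were at 0 in all libraries, and the 7 leukocyte markers summed to at most 28.8 CPM. Cardiomyocyte markers summed to at most 1.68 CPM. Only 2 of the 7 leukocyte markers and 1 of 6 cardiomyocyte markers were tested, and none of these passed in any comparison. The part of other cell types in the results was not tested, and in bulk samples fewer cells of a type cannot be told apart from less RNA per cell.

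TXNIP (ENSSSCG00000031262, chr4:99348589-99351760 of Sscrofa11.1) was at 193, 108 and 266 CPM in vehicle libraries of isolations 1, 2 and 3. With LPC it was at 102, 176 and 259 CPM. With dantrolene it was at 68.9, 39.2 and 32.1 CPM. No dantrolene library reached the lowest vehicle library, whereas the vehicle and LPC libraries covered the same range. With LPC + dantrolene TXNIP was at 62.6, 97.3 and 10.5 CPM, the highest of these just below the lowest library without dantrolene. The group means were 189 ± 79.3 with vehicle, 179 ± 78.6 with LPC, 46.7 ± 19.5 with dantrolene and 56.8 ± 43.7 with LPC + dantrolene (SD, n = 3). In the order of these means, vehicle and LPC did not differ beyond their spread, and neither did LPC + dantrolene and dantrolene.

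**Figure D1:**
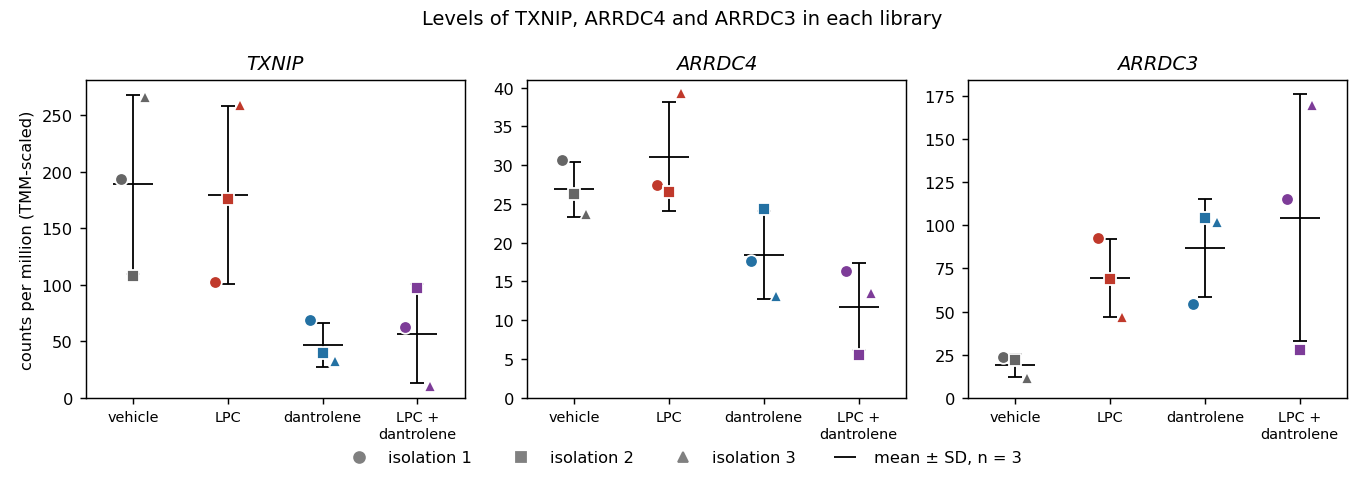
Levels of TXNIP, ARRDC4 and ARRDC3 in TMM-scaled CPM (vertical axes, from 0) in the 4 groups, with 1 symbol per library shaped by isolation, and the mean with SD (n = 3) as lines. TXNIP lay at 97.3 CPM or lower in the 6 libraries with dantrolene and at 102 CPM or higher in the 6 without it, and ARRDC3 was lowest in vehicle libraries.

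The fold change of TXNIP with dantrolene compared to vehicle, which chose the set, was −2.02 on the log2 scale (standard error 0.40, 95% confidence interval −2.81 to −1.22). That is 4.05-fold lower, and it was lower in each of the 3 pairs of libraries from the same isolation. At the threshold used for the tests, 7.54% of all genes were higher and 1.26% lower in this comparison. The members were not counted against these shares, since TXNIP was chosen for its fall with dantrolene.

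Compared to LPC alone, TXNIP fell by 1.66 on the log2 scale with LPC + dantrolene, from 179 to 56.8 CPM (standard error 0.39, 95% confidence interval −2.44 to −0.87, adjusted p = 0.0202 in the quasi-likelihood test of edgeR, adjusted over all genes). It was lower in 3 of 3 same-isolation pairs, and all 3 LPC + dantrolene libraries lay below all 3 LPC libraries, by 97.3 against 102 CPM at the nearest. Neither group of this comparison holds a library of the vehicle or dantrolene groups. Even so, TXNIP was chosen because it fell with dantrolene, and this comparison too sets dantrolene against its absence. The authors' batch adjustment and the fit here also used all 12 libraries, so this p is not independent of the choice. The call was not firm. It was lost in 11 of 19 alternative analyses with log2 fold changes between −1.94 and −1.17, and with the isolation as a block the change was −1.73 (adjusted p = 0.207, edgeR). Single libraries decided it as well, since it was lost without replicate 1 or 2 of vehicle, without any 1 of the LPC libraries, and without replicate 1 or 3 of LPC + dantrolene (adjusted p from 0.0626 to 0.403, edgeR). Without replicate 2 of LPC + dantrolene, the library that stood apart, the change was −2.30 (adjusted p = 0.00067, edgeR).

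Compared to vehicle, TXNIP fell by 1.73 on the log2 scale with LPC + dantrolene (standard error 0.40, adjusted p = 0.00122, edgeR), and the groups did not overlap. This comparison uses the vehicle libraries that also served in choosing the set. The change was −2.30 without replicate 2 of LPC + dantrolene (adjusted p = 1.91e-05, edgeR), and significance was lost when only the groups compared were fitted (adjusted p = 0.0783, edgeR) and in the Wald test of DESeq2 (adjusted p = 0.191). LPC by itself moved TXNIP by −0.08 (95% confidence interval −0.84 to 0.69, adjusted p = 0.931, edgeR), an interval from 0.559 to 1.61 times the vehicle level. Between LPC + dantrolene and dantrolene the difference was 0.28 (95% confidence interval −0.49 to 1.05, adjusted p = 1, edgeR). The effect of LPC with dantrolene less its effect without was 0.36 for TXNIP (95% confidence interval −0.73 to 1.44), which was not tested because it contains the comparison that chose the gene.

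ARRDC4 (ENSSSCG00000002252, chr7:81656760-81669584), the closest relative of TXNIP among the targets of MondoA, was at 30.7, 26.2 and 23.7 CPM in vehicle libraries. With LPC it was at 27.5, 26.6 and 39.3 CPM. With dantrolene it was at 17.7, 24.4 and 13.1 CPM, lower than vehicle in each isolation but with overlapping ranges. With LPC + dantrolene it was at 16.3, 5.47 and 13.5 CPM, below every vehicle and every LPC library. The means were 26.9 ± 3.55, 31.1 ± 7.09, 18.4 ± 5.67 and 11.8 ± 5.62 CPM in the 4 groups in that order (SD, n = 3).

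With LPC + dantrolene, ARRDC4 fell by 1.40 on the log2 scale compared to LPC (standard error 0.35, adjusted p = 0.0368, edgeR) and by 1.19 compared to vehicle (standard error 0.35, adjusted p = 0.0191, edgeR). It was lower in 3 of 3 same-isolation pairs in both comparisons. As with TXNIP, these calls were not firm, and with the isolation as a block neither passed (adjusted p = 0.158 and 0.0545, edgeR). The call against LPC was lost in 11 of 19 alternatives, among them the omission of replicate 1 or 2 of vehicle, of any 1 LPC library, of replicate 1 of dantrolene, and of replicate 2 or 3 of LPC + dantrolene (adjusted p up to 0.339, edgeR). The call against vehicle was lost in 7, among them the omission of replicate 1 or 2 of vehicle, replicate 2 of LPC, or replicate 2 of LPC + dantrolene. Without the latter library, which held the lowest level, the changes were −1.08 against LPC and −0.80 against vehicle (adjusted p = 0.0821 and 0.0735, edgeR). Dantrolene compared to vehicle gave −0.55 (95% confidence interval −1.23 to 0.14), described without a test. LPC compared to vehicle gave 0.21 (95% confidence interval −0.47 to 0.89, adjusted p = 0.781, edgeR), and LPC + dantrolene compared to dantrolene −0.64 (95% confidence interval −1.34 to 0.05, adjusted p = 1, edgeR). A lncRNA model, LOC106504490, overlaps ARRDC4, and since no source used here states whether counting used the strand, reads from the overlap cannot be assigned to either.

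ARRDC3 (ENSSSCG00000014156, chr2:98430451-98444835) went the other way. It was at 23.6, 21.6 and 11.3 CPM in vehicle libraries, at 92.5, 68.6 and 46.9 with LPC, and at 54.1, 104 and 102 with dantrolene. With LPC + dantrolene it was at 115, 27.9 and 170 CPM. All 9 treated libraries lay above all 3 vehicle libraries, the nearest being replicate 2 of LPC + dantrolene. The group means were 18.8 ± 6.59 with vehicle, 69.3 ± 22.8 with LPC, 86.9 ± 28.3 with dantrolene and 104 ± 71.7 with LPC + dantrolene (SD, n = 3), and the order among the treated groups was within their spread.

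ARRDC3 rose 3.67-fold with LPC compared to vehicle (log2 fold change 1.88, standard error 0.38, adjusted p = 0.00016, edgeR) and 5.53-fold with LPC + dantrolene (log2 fold change 2.47, standard error 0.39, adjusted p = 6.26e-06, edgeR). It was higher in 3 of 3 same-isolation pairs in both comparisons. Both calls held in each of the 19 alternatives run, with adjusted p of at most 0.025 for LPC and 0.0051 for LPC + dantrolene. Without replicate 2 of LPC + dantrolene the change in that group was 2.96. The rise with dantrolene compared to vehicle was 2.20 (standard error 0.38), described without a test. These comparisons share the vehicle libraries, so a low level in vehicle enters each of them.

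LPC + dantrolene compared to LPC gave 0.59 for ARRDC3 (standard error 0.37, adjusted p = 0.865, edgeR), and compared to dantrolene 0.27 (95% confidence interval −0.46 to 0.99, adjusted p = 1, edgeR). The effect of LPC on ARRDC3 was 1.61 lower on the log2 scale with dantrolene than without (interaction −1.61, standard error 0.52, adjusted p = 0.0538, edgeR), which did not pass. It passed in 5 alternatives, at −2.16 without replicate 3 of LPC + dantrolene (adjusted p = 0.00217, edgeR), without replicate 3 of LPC, without replicate 1 of dantrolene, and under both other filters on low counts.

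**Figure D2:**
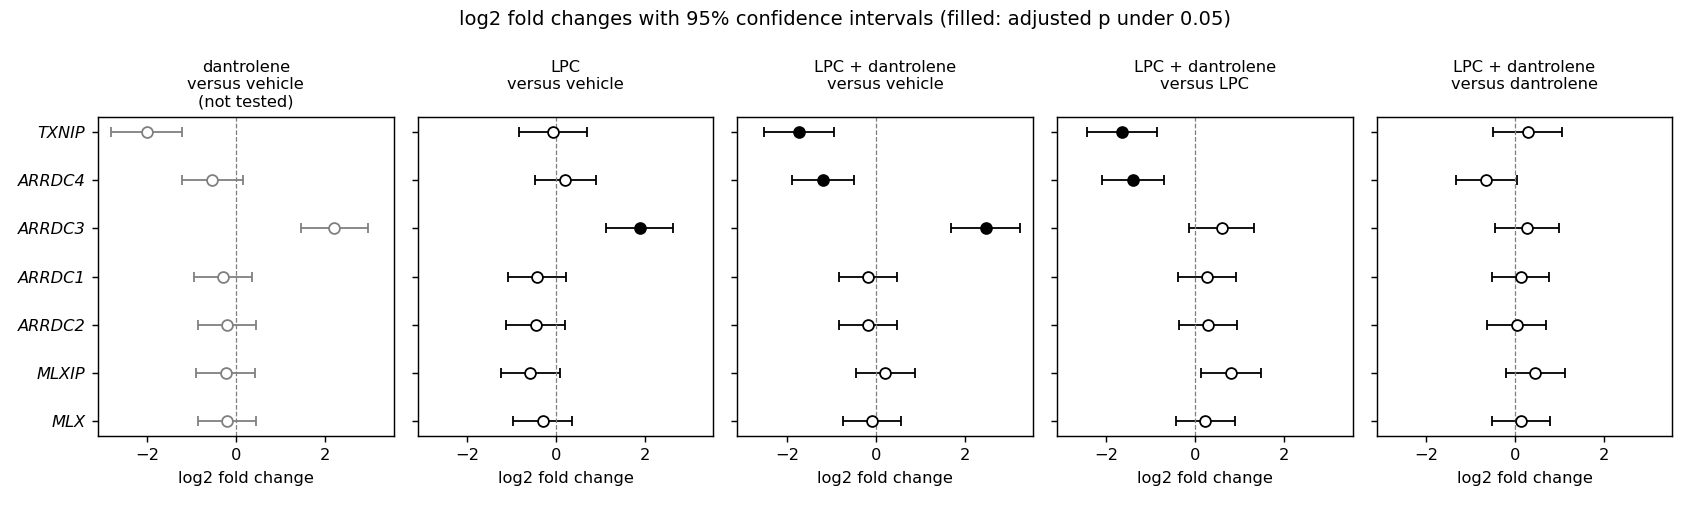
Log2 fold changes (horizontal axis) of the 7 members tested, in 5 comparisons, with 95% confidence intervals and filled points at an adjusted p under 0.05. Dantrolene versus vehicle is drawn in grey without a test. ARRDC3 lies right of 0 in the comparisons with vehicle, TXNIP and ARRDC4 lie left of 0 where LPC + dantrolene is compared to vehicle or LPC, and the other 4 genes have no filled point.

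Compared to vehicle, ARRDC3 and TXNIP took opposite courses in both groups with dantrolene, whereas with LPC alone ARRDC3 passed and TXNIP did not. Their counts are set together here as the number of ARRDC3 counts per TXNIP count within a library. This ratio needs no scaling between libraries and is compared here only between libraries. It was 0.122, 0.201 and 0.0426 in vehicle libraries of isolations 1, 2 and 3, and 0.904, 0.39 and 0.181 with LPC. With dantrolene it was 0.786, 2.66 and 3.18, and with LPC + dantrolene 1.84, 0.287 and 16.1. Within each isolation the vehicle library had the lowest ratio, and the range of the ratio was widest with LPC + dantrolene, whose replicate 2 lay among the LPC libraries. TXNIP made up 57.9%, 41.5% and 66.3% of the counts of the 5 alpha-arrestins in vehicle libraries and 37.1%, 48.4% and 63.1% with LPC. It made up 30.4%, 16.1% and 13.9% with dantrolene, and 24.2%, 41% and 3.77% with LPC + dantrolene. The dantrolene shares lay below all vehicle shares, while replicate 1 of LPC also lay below them and replicate 2 of LPC + dantrolene was close to the lowest. The summed level of the 5 alpha-arrestins lay between 259 and 401 CPM with vehicle, 276 and 411 with LPC, 226 and 244 with dantrolene, and 237 and 279 with LPC + dantrolene. The ratio was formed after the values of both genes were seen and rests on comparisons that chose the set, so it carries no test.

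**Figure D3:**
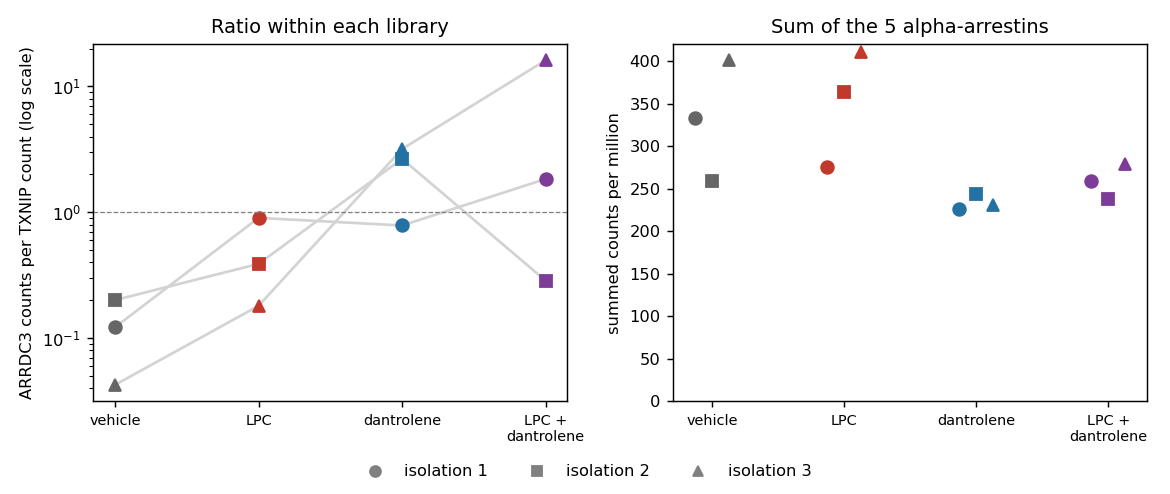
Left, ARRDC3 counts per TXNIP count in each library on a log axis, with grey lines joining libraries of the same isolation. Right, the summed level of the 5 alpha-arrestins in CPM. The ratio lies between 0.0426 and 0.201 in vehicle libraries and reaches 16.1 in replicate 3 of LPC + dantrolene, while the sums of the dantrolene libraries lie between 226 and 244.

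ARRDC1 (ENSSSCG00000039824, on an unplaced sequence of the assembly), an arrestin that buds in extracellular vesicles, was at 37.6 ± 7.68 CPM with vehicle, 27.8 ± 6.94 with LPC, 30.6 ± 7.10 with dantrolene and 33.3 ± 1.80 with LPC + dantrolene (SD, n = 3). ARRDC2 (ENSSSCG00000013893, chr2:59771104-59778500) was at 59.0 ± 2.40, 42.8 ± 13.7, 51.1 ± 11.9 and 52.3 ± 19.5 CPM in the same order. Neither passed in any of the comparisons tested. The LPC libraries were lower than vehicle in 3 of 3 same-isolation pairs for both genes, with log2 fold changes of −0.44 for ARRDC1 and −0.46 for ARRDC2 (adjusted p = 0.585 and 0.564, edgeR) and overlapping groups.

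MLXIP (ENSSSCG00000009794, chr14:30575098-30646275), which encodes MondoA, was at 41.4, 41.7 and 35.1 CPM in vehicle libraries and at 33.9, 15.7 and 29.2 with LPC. It was at 39.7, 28.4 and 32.2 CPM with dantrolene and at 30.6, 60.1 and 46.5 with LPC + dantrolene. The LPC libraries lay below all vehicle libraries, but the change of −0.58 did not pass (95% confidence interval −1.25 to 0.08, adjusted p = 0.429, edgeR). LPC + dantrolene compared to LPC gave 0.80, with an unadjusted p of 0.0194 and an adjusted p of 0.538 from edgeR, and 0.54 without replicate 2 of LPC + dantrolene. MLX (ENSSSCG00000017397, chr12:20249760-20257543), the obligate partner, was at 48.6 ± 8.37, 39.4 ± 6.25, 42.1 ± 3.20 and 46.1 ± 21.8 CPM in the 4 groups (SD, n = 3), and its changes ranged from −0.30 with LPC compared to vehicle to 0.22 with LPC + dantrolene compared to LPC, none of which passed. The gene overlaps PSMC3IP in the annotation. MLXIPL (ENSSSCG00000007710, chr3:10898675-10934257), which encodes ChREBP of liver and fat, had 0 counts in all 12 libraries, below the floor of 3 counts.

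**Figure D4:**
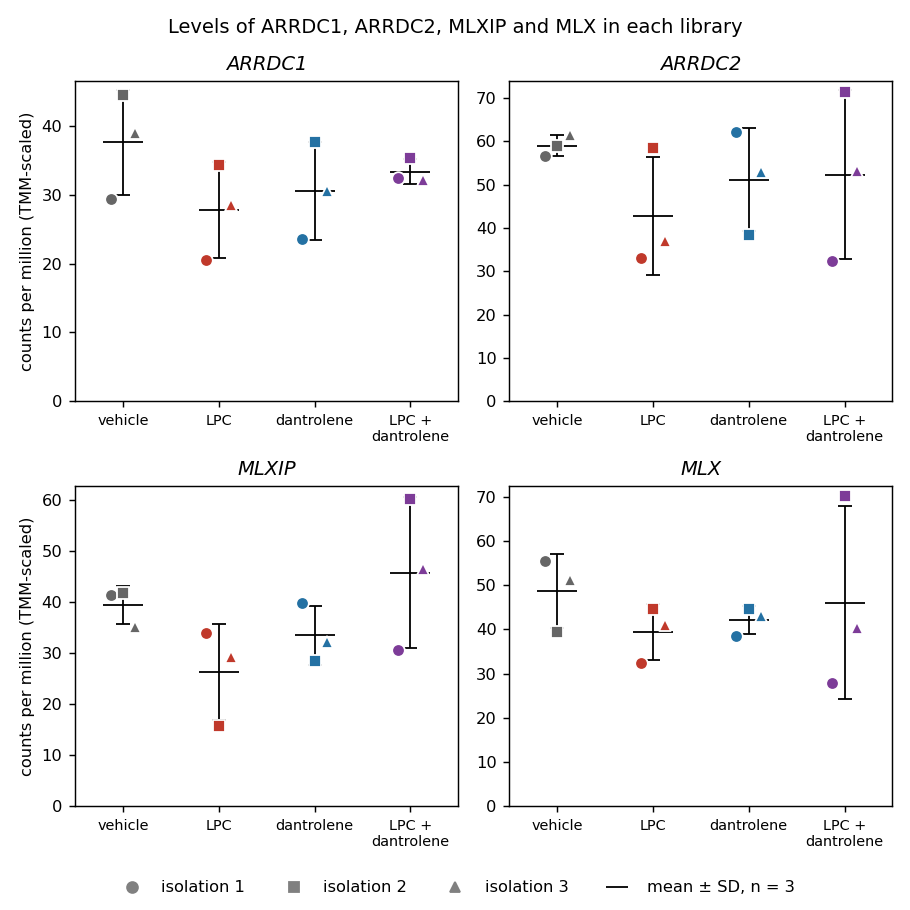
Levels of ARRDC1, ARRDC2, MLXIP and MLX in TMM-scaled CPM (vertical axes, from 0), drawn by group with 1 symbol per library shaped by isolation and the mean with SD (n = 3). In replicate 2 of LPC + dantrolene, ARRDC2, MLXIP and MLX were highest of all libraries, and the groups overlap for ARRDC1, ARRDC2 and MLX in each comparison.

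Over the 7 members tested, 1 was higher with LPC compared to vehicle and 0 lower, where 8.54% of all genes were higher and 0.144% lower. With LPC + dantrolene compared to vehicle 1 was higher and 2, TXNIP and ARRDC4, were lower, where 6.23% of all genes were higher and 0.9% lower. With LPC + dantrolene compared to LPC 0 were higher and the same 2 lower, where 0.219% and 0.288% of all genes were. The set was chosen by the fall of TXNIP with dantrolene, so its part in both counts is built in. Without TXNIP only ARRDC4 was lower, with calls that were not firm. Between LPC + dantrolene and dantrolene 0 members passed, where edgeR called 0.0227% of all genes, 3 in number, and 169 genes had an unadjusted p under 0.05. No member had one there, and DESeq2 called no member either. For the interaction 0 of the 6 members given a test passed, where 4.65% of all genes did, and 2 of them, ARRDC3 and MLXIP, had an unadjusted p under 0.05 (0.00263 and 0.0309, edgeR). DESeq2 also called 0 there.

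Groups did not overlap for 2 members with LPC compared to vehicle (27.2% of all genes), 3 with LPC + dantrolene compared to vehicle (10.4%), 2 with LPC + dantrolene compared to LPC (9.78%), 0 with LPC + dantrolene compared to dantrolene (4.71%), and 2 with dantrolene compared to vehicle (27.1%). TXNIP, which chose the set, is counted in each comparison of a group with dantrolene to one without. The median log2 fold change of the members was −0.30 with LPC compared to vehicle, against −0.18 over all genes, and −0.17 against −0.08 with LPC + dantrolene. Compared to LPC, the median of the members with LPC + dantrolene was 0.26, against 0.02 over all genes, and none of the 5 members other than TXNIP and ARRDC4 passed there. Without replicate 2 of LPC + dantrolene, ARRDC2 was at −0.02 and MLX at −0.23 in this comparison.

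Of 19 other genes that MondoA and ChREBP are known to drive, 16 were tested, and 0 passed with LPC compared to vehicle. With dantrolene 3 were lower and 0 higher compared to vehicle, where 1.26% of all genes were lower and 7.54% higher. With LPC + dantrolene 4 were lower and 0 higher compared to vehicle, where 0.9% of all genes were lower and 6.23% higher. With LPC + dantrolene compared to LPC, which holds no library of the vehicle or dantrolene groups, 0 of the 16 passed. The median of the list was −0.19 there, against 0.02 over all genes. HK2 was at −1.07, PFKFB3 at −1.01 and LDHA at −0.88 (adjusted p = 0.159, 0.226 and 0.424, edgeR). Compared to vehicle, the median log2 fold change of the list was −0.46 with dantrolene and −0.71 with LPC + dantrolene, against −0.11 and −0.08 over all genes. The genes that fell are enzymes of glucose use and of lipid synthesis.

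HK2, the hexokinase that makes glucose 6-phosphate, was at 74.6, 133 and 64.2 CPM with vehicle, and at 17.4, 31.0 and 36.2 with dantrolene, with no overlap. It fell compared to vehicle with dantrolene (log2 fold change −1.68, adjusted p = 0.00021, edgeR) and with LPC + dantrolene (−1.52, adjusted p = 0.000847, edgeR). PFKFB3, which makes the activator of phosphofructokinase, fell as well, with log2 fold changes of −1.68 and −1.41 in these groups (adjusted p = 0.000236 and 0.00234, edgeR). LDHA, lactate dehydrogenase, had −1.19 and −1.12 (adjusted p = 0.0137 and 0.0247, edgeR), and each of its calls was lost in 5 of 19 alternatives, among them the omission of replicate 1 or 2 of vehicle. SCD, the stearoyl-CoA desaturase, fell by 1.22 with LPC + dantrolene (adjusted p = 0.00915, edgeR), which was lost in 5 alternatives, and was at −0.90 with dantrolene. The HK2 call with LPC + dantrolene was lost without replicate 2 of vehicle (adjusted p = 0.0649, edgeR) and that of PFKFB3 without replicate 1 of LPC + dantrolene (adjusted p = 0.0619, edgeR). Several of these genes, HK2, PFKFB3 and LDHA among them, are also driven by other regulators, and what lowered them was not tested. KLF10, 1 of the 13 tested targets that did not pass with dantrolene, was at 137 CPM with vehicle and 116 with dantrolene (log2 fold change −0.25, adjusted p = 0.786, edgeR).

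Among genes of glucose entry and glucose 6-phosphate, 15 of 19 were tested. SLC2A5, the fructose transporter, was at 50.3, 102 and 93.6 CPM with vehicle, 57.5, 63.6 and 67.8 with LPC, 20.2, 24.4 and 23.5 with dantrolene, and 19.3, 35.6 and 17.5 with LPC + dantrolene. All 6 libraries with dantrolene lay below all 6 without it. Its log2 fold changes compared to vehicle were −1.85 with dantrolene and −1.77 with LPC + dantrolene (edgeR, adjusted p = 5.68e-05 and 0.00012), calls that held in all 19 alternatives. Compared to LPC it fell by 1.39 with LPC + dantrolene (adjusted p = 0.0248, edgeR), which was lost in 9 alternatives, among them the isolation as a block (adjusted p = 0.0722, edgeR) and the omission of any 1 LPC library. HK1, the constitutive hexokinase, had log2 fold changes of −1.02 with dantrolene and −1.09 with LPC + dantrolene (edgeR, adjusted p = 0.0338 and 0.0233), and these calls were lost in 8 and 5 of 19 alternatives (adjusted p up to 0.282 and 0.237, edgeR), the isolation as a block being among those of the first (adjusted p = 0.0602, edgeR). SLC2A13, the proton myo-inositol transporter, rose by 1.95 with LPC, 1.40 with dantrolene and 1.38 with LPC + dantrolene (edgeR, adjusted p = 4.35e-05, 0.00425 and 0.00556). Its call with dantrolene was lost without replicate 2 of dantrolene (adjusted p = 0.136, edgeR), and that with LPC + dantrolene without replicate 3 of vehicle or replicate 1 or 3 of LPC + dantrolene (adjusted p up to 0.0819, edgeR). With HK2, which is on this list too, 3 genes were lower and 1 higher in both groups with dantrolene compared to vehicle. Of all genes, 1.26% were lower and 7.54% higher with dantrolene, and 0.9% and 6.23% with LPC + dantrolene. With LPC 1 was higher, where 8.54% of all genes were. The 1 higher gene of the 15 is near the share of all genes. No row carried the symbols SLC2A1 or SLC2A3, the transporters most closely tied to TXNIP.

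The thioredoxin and glutaredoxin system had 15 of 18 genes tested and 0 calls in every comparison. TXN, the gene of the thioredoxin that TXNIP binds, had no row by that symbol and was not among those tested. TXNRD1, thioredoxin reductase, was at 335 CPM with vehicle, 332 with LPC, 380 with dantrolene and 382 with LPC + dantrolene, with log2 fold changes from −0.01 to 0.19 against vehicle. PRDX1, the most counted peroxiredoxin, was at 609, 484, 779 and 757 CPM in the same order, and its change of 0.65 between LPC + dantrolene and LPC did not pass.

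Of the ubiquitin ligases and partners that alpha-arrestins work with, 2 of 9 tested were higher than vehicle in every treated group, where 8.54% of all genes were higher with LPC, 7.54% with dantrolene and 6.23% with LPC + dantrolene. ITCH, which also targets TXNIP protein for degradation, was at 17.7, 11.9 and 10.4 CPM with vehicle and at 58.2, 55.4 and 48.5 with LPC. With dantrolene it was at 32.3, 54.4 and 41.3 CPM, and with LPC + dantrolene at 56.1, 13.7 and 52.7. All treated libraries but replicate 2 of LPC + dantrolene were above all vehicle libraries. Its log2 fold changes against vehicle were 2.02 with LPC, 1.68 with dantrolene and 1.62 with LPC + dantrolene (edgeR, adjusted p = 2.47e-05, 0.000531 and 0.000928), and they held in all 19 alternatives. NEDD4 rose by 1.35, 1.69 and 1.74 (adjusted p = 0.00744, 0.000671 and 0.000479, edgeR), and its rise with LPC was lost in 4 alternatives, without replicate 2 or 3 of vehicle and without replicate 1 or 2 of LPC. The other 7 of the 9 tested genes of this list did not pass.

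Among arrestin-fold relatives VPS26A, a retromer subunit, rose by 1.76 with LPC, 1.65 with dantrolene and 1.80 with LPC + dantrolene (edgeR, adjusted p = 0.000216, 0.000654 and 0.000222), and the beta-arrestins ARRB1 and ARRB2 and the paralogs VPS26B and VPS26C did not pass. Of all genes, 8.54% were higher with LPC, 7.54% with dantrolene and 6.23% with LPC + dantrolene compared to vehicle. The arrestin-fold, MYC and AMPK lists are short and held 1 riser each, and nothing is read from that number. In the MYC, MAX and MXD network, which shares partners with MLX, 1 of 9 tested genes passed. This was MGA, a repressor that pairs with MAX, with rises of 1.81, 1.43 and 1.15 (adjusted p = 0.000203, 0.00444 and 0.0351, edgeR), the last lost in 9 alternatives, among them the isolation as a block (adjusted p = 0.132, edgeR). Its call with dantrolene was lost without replicate 2 of vehicle and without replicate 2 of dantrolene (adjusted p up to 0.121, edgeR). Without replicate 2 of dantrolene, the dantrolene calls of VPS26A and PRKAA1 were lost too (adjusted p = 0.0771 and 0.0579, edgeR). Of 8 AMPK genes tested, PRKAA1, the catalytic subunit of a kinase that phosphorylates TXNIP, rose by 1.51 with LPC and 1.41 with dantrolene (edgeR, adjusted p = 0.00121 and 0.00328) and was 1.05 higher with LPC + dantrolene, which did not pass. Of the NLRP3 inflammasome 4 of 7 genes were tested and 0 passed, with NLRP3 at 3.93 to 4.78 CPM in the group means and NEK7, the most counted, at 93.8 to 139. Like ARRDC3, the genes of these lists that rose (ITCH, NEDD4, MGA, PRKAA1, SLC2A13) were lowest of their group in replicate 2 of LPC + dantrolene, and so was VPS26A.

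**Figure D5:**
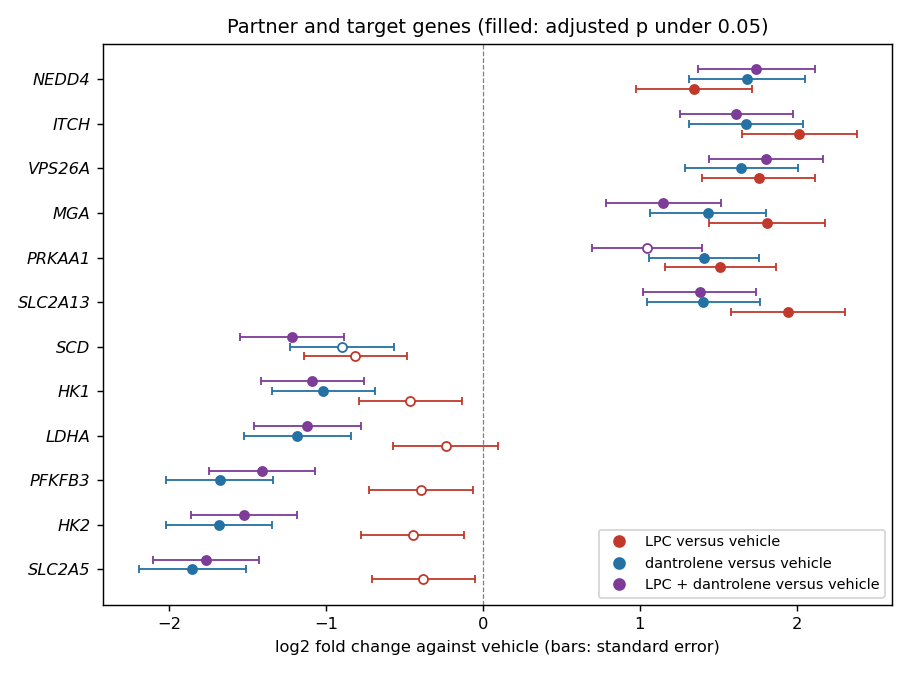
Log2 fold changes against vehicle (horizontal axis, bars are standard errors) of the 12 genes of the partner and target lists that passed in any comparison, with filled points at an adjusted p under 0.05. Genes of glucose use and SCD lie left of 0, with the LPC points nearest to 0, and the 6 genes at the top lie right of 0 in all treatments.

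The genes whose log2 CPM followed TXNIP most closely over the 12 libraries were ACTA1 (Pearson r = 0.976), LMCD1 (0.961), CCN2 (0.949), AQP3 (0.938), RASL11B (0.929), SCX (0.926), PENK (0.925), CCN3 (0.924), CTHRC1 (0.922) and PRDM6 (0.922), of 11494 genes with a symbol. These values describe libraries that share isolations and scaling, and a difference between groups raises them. ACTA1, a muscle actin, was at 332, 274 and 463 CPM with vehicle, 171, 219 and 466 with LPC, 111, 61.5 and 53.2 with dantrolene and 63.4, 180 and 17.8 with LPC + dantrolene. As with TXNIP, replicate 2 was the highest and replicate 3 the lowest library of the LPC + dantrolene group. After the group means were taken out r was 0.95 for ACTA1 and 0.8 to 0.982 for the 10 genes, a description only, since they were picked on a correlation that includes the variation within groups. CCN2, the connective tissue growth factor, was at 3072 ± 1032 CPM with vehicle and 1216 ± 571 with dantrolene (SD, n = 3), and AQP3 and PRDM6 had group means of at most 3.58 CPM.

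The genes most opposite to TXNIP were CXCL8 (r = −0.912), TIPARP (−0.911), CYP1B1 (−0.902), ZBTB16 (−0.899) and PTGS2 (−0.897). CXCL8 had few counts without dantrolene, with 22, 10 and 2 in the vehicle libraries, the last below the floor of 3. ZBTB16 had means of 2.96 CPM with vehicle and 2.12 with LPC. CYP1B1 and TIPARP are well-known targets of the aryl hydrocarbon receptor, and CYP1B1 was at 22.7 ± 17.9 CPM with vehicle and 1199 ± 647 with dantrolene (SD, n = 3). Of the members, ARRDC4 had r = 0.48 with TXNIP, rank 1123 of 11494, and −0.265 once the group means were taken out. Of all the partner and target lists, SLC2A5 of the glucose list (r = 0.801) ranked highest, at 110. MXD4 of the MYC, MAX and MXD network (0.739) was at 195 and the target PFKFB3 (0.711) at 245. HK2 (0.528) was at 876 with −0.548 within groups. The list gene most opposite to TXNIP was ITGB4, a partner of the alpha-arrestins (r = −0.868, rank 11486).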

How the data were processed

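The authors aligned mRNA reads (their methods name STAR, and the submitters' processing notes list HISAT2 2.0.5, R 4.1.1, DESeq2 1.32.0 and the build Sscrofa11.1 without roles). They adjusted gene counts for batch effects with ComBat of the sva package, and deposited whole-number counts, not scaled for library size. The paper does not name the batch, which is taken here to be the isolation. The tests ignore the degrees of freedom spent on that adjustment, which can make adjusted p-values too small, and SDs are those left after it. The authors' deposited DESeq2 tables (mean, log2 fold change, its error, statistic, p-values) were not used.

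Analysis used edgeR 4.0.16 (R 4.3.3). Genes kept by filterByExpr were TMM-scaled and fitted in a quasi-likelihood model of all 12 libraries with group as the only term, and calls were made below an adjusted p of 0.05 (Benjamini-Hochberg). Fold changes are log2, with 95% confidence intervals. The members and lists were chosen with earlier results of these data known. Named genes are the members, listed genes past the threshold in any comparison (the most counted where none passed), and the 10 genes most and 5 least correlated with TXNIP over log2 CPM (prior count 2). KLF10, beta-arrestins and VPS26 paralogs are named in addition. So are the markers POSTN, LUM and CDH5 and the list genes MXD4 and ITGB4, after their values were seen. Same-numbered libraries were taken to come from the same isolation, cultured on its own day. This rests on the paper's account of separate experiments, each with a single replicate per group, since the labels do not state it. The p-values measure the spread between libraries that remained after the batch adjustment. Deviations of same-numbered libraries from group means correlated at a median of −0.152, against 0.108 for other pairs, an outcome the adjustment fixes if its batch was the isolation. Alternatives were RLE size factors, scaling to total counts alone, fits of only the groups compared, the filter left out, a minimum of 10 counts per library, DESeq2 1.42.0, the isolation as a block, and each library left out in turn. Code was tested on simulated data. Positions are those of RefSeq genes, and no sequences were used here.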

Additional observations from a re-analysis of the deposited data

Results flagged for a closer look

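For 5 genes of the partner and target lists, the effect of LPC with dantrolene present differed from its effect without it by a test of the interaction in edgeR, where 4.65% of all genes passed. They were 1 of 15 genes tested on the glucose list, 1 of 9 in the MYC network, 1 of 9 ligases and partners, 1 of 5 arrestin-fold relatives and 1 of 8 AMPK genes. On the lists of 16 target, 15 thioredoxin system and 4 inflammasome genes 0 passed. Over all these lists the number is near the share of all genes, and nothing is read from it. Each of the 5 genes was higher with LPC and with dantrolene alone compared to vehicle. The difference on the log2 scale was −1.97 for SLC2A13 (adjusted p = 0.00833, edgeR), −2.09 for MGA (adjusted p = 0.00618, edgeR), −2.08 for ITCH (adjusted p = 0.0055, edgeR), −1.60 for VPS26A (adjusted p = 0.0433, edgeR) and −1.88 for PRKAA1 (adjusted p = 0.0111, edgeR). Of 18 alternatives the call was lost in 2, 4, 3, 12 and 4 in the same order, and for each gene when replicate 2 of LPC or replicate 2 of dantrolene was left out. VPS26A also lost it with the isolation as a block (adjusted p = 0.14, edgeR). Replicate 2 of LPC + dantrolene held the lowest level of its group for all 5 genes. When it was left out the call of VPS26A was lost and the other 4 were kept.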

How the results depend on the processing

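Of 339 alternative values of the counts of calls and of TXNIP, 266 were scored the same, 13 lost significance and 60 moved. A count was scored the same near the main count, and a tested fold change where its call stood. Untested fold changes were scored the same within the spread of the libraries. The 0 reversed covers called values only, since a change of sign without a call was scored the same. The change of TXNIP with LPC compared to vehicle, never called, ran from −0.44 to 0.31. Of 678 values of the other 6 tested members, 653 were scored the same, 18 lost significance, 5 gained it and 2 moved. Compared to LPC, TXNIP with LPC + dantrolene was at −1.67 on total counts alone, −1.67 with only the groups compared, −1.64 with DESeq2 and −1.73 with the isolation as a block (adjusted p = 0.229, 0.232, 0.557 and 0.207, edgeR and DESeq2), and between −2.30 and −1.17 with libraries left out. Compared to vehicle it was at −1.65 with only the groups compared and −1.67 with DESeq2. Members called with LPC + dantrolene, TXNIP included, fell from 2 to 0, 0, 1 and 0 in these 4 settings compared to LPC (0 to 2 with libraries left out). Compared to vehicle, the members called in that group fell from 3 to 1 with only the groups compared. For the interaction the members called rose from 0 to 1 without the filter and with at least 10 counts, and lay between 0 and 1 with libraries left out.

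Genes called with LPC + dantrolene compared to vehicle were 943, 553 with only the groups compared and 618 with the isolation as a block. Compared to LPC they were 67 (29 higher, 38 lower), 7 on total counts alone (5 higher, 2 lower), 16 with only the groups compared and 19 with the block. Compared to dantrolene they were 3, with 1 on total counts alone, with at least 10 counts and with only the groups compared, 6 without the filter and 5 with DESeq2. For the interaction they were 614, 234 on total counts alone and 280 with the block. With libraries left out, calls ranged from 687 to 1692 for LPC, 508 to 2099 for LPC + dantrolene and 429 to 1799 for dantrolene compared to vehicle, 9 to 140 compared to LPC, 1 to 6 compared to dantrolene and 4 to 937 for the interaction. On total counts alone the median change of all genes with dantrolene compared to vehicle was 0.13 in place of −0.11, and MLX was at 0.034 in place of −0.21. Beside the block calls given with their genes, the block changed no other call of a member. The cause of these differences was not tested.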
